A study of Oryza sativa with 36 samples.

Results

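Thioredoxins and glutaredoxins are small enzymes that reduce or form disulfide bonds on other proteins, and their genes were followed here through chilling and recovery in the leaves of a tolerant and a sensitive rice genotype. The genes were chosen by name: a probe set was taken when the symbol or a synonym of its gene began with Trx or GRX, with case ignored and a leading Os dropped. This matched 43 genes, of which 10 had no probe set (Trx11, Trx16, Trx22, Trx24, GRXC2, GRXC4, GRXC5, GRXC11, GRXC13 and GRXC14). A further one, SDG723, is a histone methyltransferase gene that carries Trx1 as a synonym and was left out. The remaining 32 genes, 14 thioredoxins and 18 glutaredoxins, are described out of 17905 genes with a probe set on the array. Where a gene had more than 1 probe set, as 7 of the 32 did (Trx18, Trx20, Trxh1, Trxm5, GRXS4, GRXS10 and GRXS11), the one with the highest mean intensity was used.

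Thioredoxins are reduced by ferredoxin-thioredoxin reductase in the chloroplast and by NADPH-dependent thioredoxin reductases elsewhere, and pass the electrons on to target proteins. In chloroplasts the f and m types are known for light-dependent activation of carbon metabolism enzymes, the y type for reducing peroxiredoxins in Arabidopsis, and the z type as a component of the plastid RNA polymerase complex. The h types are mostly cytosolic. Glutaredoxins are reduced by glutathione instead, and some bind iron-sulfur clusters. The letter C or S in a GRX name marks a cysteine or a serine as the last residue of the active-site motif. CC-type glutaredoxins, which plants have in large numbers, are known in Arabidopsis as partners of TGA transcription factors.

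The plants were seedlings at the S3 stage grown at 29 °C. LTH (Li-Jiang-Xin-Tuan-Hei-Gu) is a chilling-tolerant japonica and IR29 a chilling-sensitive indica. Controls of each genotype stayed at 29 °C, chilled groups were sampled at 2, 8, 24 and 48 h of 4 °C, and plants for recovery went back to 29 °C for 24 h once 48 h at 4 °C had passed, with 3 biological replicates in each of the 12 groups. Soil plates of seedlings served as the biological replicates, and leaf RNA of each sample was hybridized to 1 of 36 Affymetrix rice arrays. By the methods, both genotypes grew together on the plates, so arrays of different genotypes or times may come from 1 plate. Which plate an array came from is not given, and the main fit held no plate term. The labels name 1 control group per genotype. By the methods, control leaves were taken at every chilling time, and which of them the control arrays hold is not given in the sources used here, so time at 4 °C and time of day of sampling cannot be told apart.

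Values are linear intensities as normalized by the authors, so levels are compared between groups for a gene and not between genes. A gene is said to have risen or fallen where the limma adjusted p was below 0.05 over all 57258 probe sets and the log2 difference was at least 1 in size. The standard error (SE) is that of the log2 difference, and n = 3 arrays per group throughout. Of 15 listed leaf markers 4 were measured, among them genes of Rubisco and its activase. These 4 summed to between 6428 and 16281.5 on each array. However, 1 of them, RBCS1, stayed near the floor with group means of 3.1 to 7.5. In the IR29 recovery group the leaf sum was 6428 to 8307, against 14178 to 15918 in the IR29 control. Markers of root (5 of 7 measured) summed to 56.2 to 3221 and those of flower and anther (8 of 10) to 104.6 to 613.5. In 3 arrays the values were less like their own group than usual. LTH 8 h replicate 3 and LTH 24 h replicate 2 correlated best with each other (r = 0.972, against at most 0.943 and 0.888 with their own groups), and their 11 dividing-cell markers summed to 2013 and 1280.2, against 240.8 to 555.2 on the other LTH arrays of those groups. The same sum was 1059.2 to 1270.4 in the LTH control and 259.3 to 284.1 at 2 h, so the other arrays are low against the control, and the part of these cells in the LTH results was not tested. IR29 48 h replicate 2 reached r = 0.931 with its group. Calls that change without these 3 arrays are given beside the values or with the limits of the processing.

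During chilling, falls outnumbered rises among these genes at every time in IR29 and at 24 and 48 h in LTH. Among all named genes falls outnumbered rises at these times too. Every rise called was in a glutaredoxin gene. After 2 h at 4 °C, 4 of the 32 genes had risen and 2 had fallen in LTH, where 6.99% of all probe sets rose and 6.62% fell. The array holds many probe sets without a named gene, so the shares over 1 probe set per named gene are the closer background, and in LTH at 2 h these were 10.4% and 12%. In IR29, 5 had risen and 9 had fallen at 2 h, where 7.05% of all probe sets rose and 9.49% fell (9.35% and 16.8% of named genes). At 8 h the counts were 5 up and 4 down in LTH, beside 7.26% and 6.50% of all probe sets (10.6% and 11% of named genes). In IR29 they were 3 up and 8 down at 8 h, beside 7.24% and 7.98% (10.6% and 12.1% of named genes). At 24 h LTH had 5 up and 7 down, beside 9.46% and 10.9% (12.2% and 19.1% of named genes). IR29 had 4 up and 10 down at 24 h, beside 8.54% and 11.4% (9.8% and 19% of named genes). At 48 h LTH had 5 up and 11 down, beside 12.3% and 13.1%, and IR29 had 4 up and 12 down, beside 10.6% and 13.8%.

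Over 1 probe set per named gene, the 34.4% of the 32 genes that fell in LTH at 48 h stands beside 22.6% of all named genes, and the 37.5% in IR29 beside 22.9%. The shares that rose at 48 h, 15.6% in LTH and 12.5% in IR29, stand beside 14.9% and 11.4% and are close to that background. The median log2 difference of the 14 thioredoxins at 48 h was -1.0 in LTH and -0.92 in IR29, and that of the 18 glutaredoxins was -0.58 and -0.50, while the median over all named genes was -0.25 in both genotypes. Against a control, 0 of 14 thioredoxins rose in each of the 10 comparisons, where between 2.32% and 14.9% of named genes rose. At such shares few of 14 genes would rise. At an unadjusted p below 0.05 with no minimum on the size, 9 of these 140 tests gave a higher level in the treated group, and none of these reached the 2-fold minimum.

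**Figure D1:**
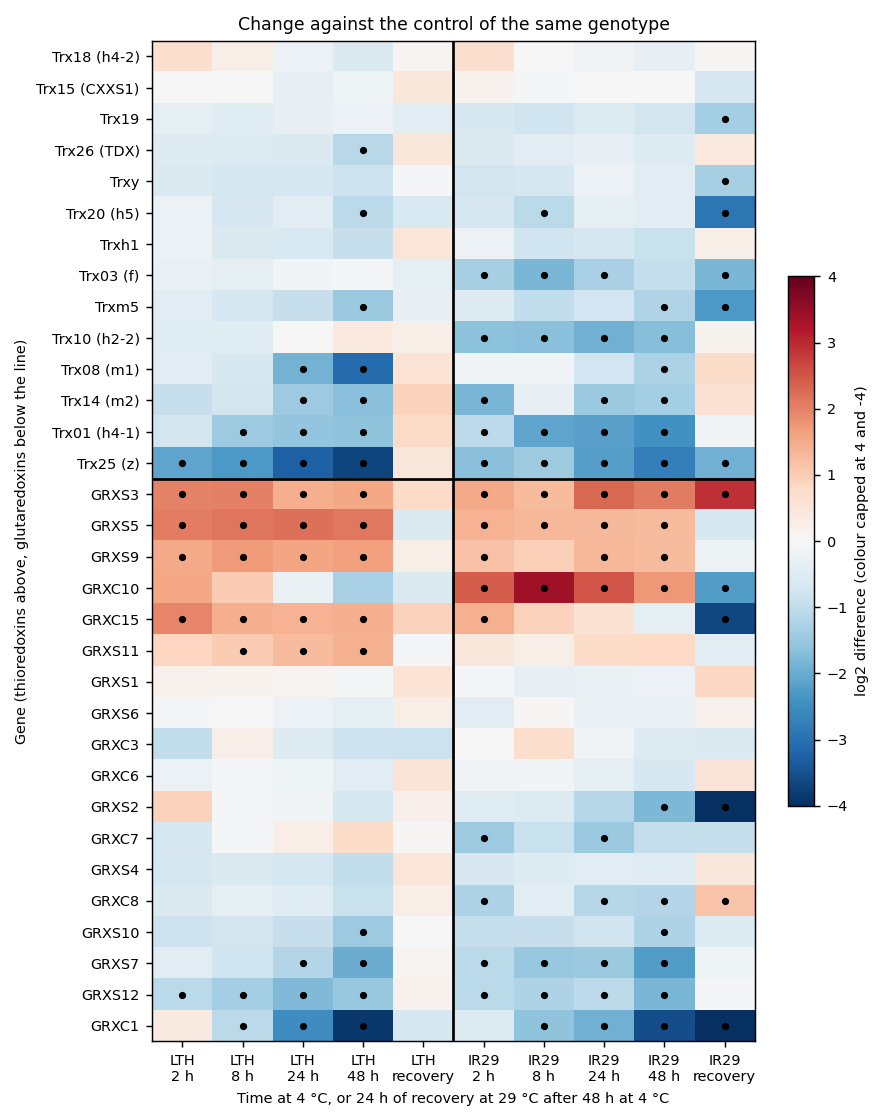
Log2 difference from the control of the same genotype for each of the 32 genes (rows) in LTH and IR29 (columns), with the time at 4 °C or recovery along the x axis; black dots mark genes that passed the test. Reds with a dot sit only in the glutaredoxin block, while paler reds without a dot occur among the thioredoxins too. The LTH recovery column holds no dot, and the IR29 recovery column holds 12.

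The glutaredoxins that rose under chilling were 6 in number. GRXS5, GRXS9, GRXS3 and GRXC15 rose in both genotypes at 2 h, GRXC10 rose in IR29, and GRXS11 rose in LTH from 8 h. The biochemical targets of these rice proteins are not given in the files.

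GRXS5 rose at all 4 times in both genotypes. In LTH its control arrays read 717, 846 and 593, and its arrays read 2927, 2884 and 2950.0 at 2 h and 2602, 3046 and 3673 at 48 h. In IR29 the controls read 1487, 968 and 1351, followed by 3220.0, 3253 and 3308 at 2 h and 2456, 3454 and 3114 at 48 h. All chilled arrays lay above all controls of their genotype, the 48 h arrays of the genotypes overlapped, and every LTH control was below every IR29 control. The log2 difference in LTH was 2.04 (SE 0.16, adjusted p = 8.2e-11) at 2 h and between 2.04 and 2.19 at all 4 times. In IR29 it was 1.38 (SE 0.16, adjusted p = 9.1e-08) at 2 h and between 1.25 and 1.38 at all 4 times. The rise was larger in LTH by 0.86 (SE 0.22, adjusted p = 0.011) at 48 h, which is under the 2-fold minimum, and the control level was lower in LTH, with a log2 difference of -0.81 (SE 0.16, adjusted p = 0.00045). After recovery GRXS5 read 458, 457 and 504 in LTH and 875, 793 and 750 in IR29, below every control of its genotype. Neither fall below the control was called. From 48 h to recovery the log2 difference in LTH was -2.7 (adjusted p = 6e-14).

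GRXS9 behaved alike at a similar range of intensities. LTH went from 936, 1172 and 907 in the control to 2679, 2882 and 2938 at 2 h, and no chilled array overlapped the controls. IR29 went from 1241, 933 and 1106 to 1925, 2525 and 2914 at 2 h. The log2 differences were 1.5 to 1.69 in LTH and 0.95 to 1.32 in IR29 (SE 0.17), and the value of 0.95 at 8 h in IR29 was below the 2-fold minimum. None of the differences between the genotypes in the GRXS9 response passed the test.

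GRXS3 was a dim gene whose rise went on into recovery in IR29. Its LTH controls read 11.15, 14.8 and 9.90 and its LTH arrays at 2 h 34.7, 32.9 and 88.6. Its IR29 controls read 24.5, 25.1 and 25.4, with 90.5, 125 and 166 at 24 h and 204, 175 and 192 after recovery. In LTH the rise of 1.98 (SE 0.39, adjusted p = 0.00032) at 2 h had shrunk to 0.77 (SE 0.39, adjusted p = 0.39) after recovery, where the arrays read 27.5, 19.2 and 15.2. In IR29 the difference from the control after recovery was 2.93 (SE 0.39, adjusted p = 5.9e-07), the highest IR29 value of this gene. The difference between the genotypes in the recovery response was -2.16 (SE 0.55, adjusted p = 0.0083), LTH minus IR29.

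GRXC15 rose early in both genotypes and then parted. In LTH it went from 131, 109.6 and 104 in the control to 246, 415 and 824 at 2 h, and stayed at 363, 329.8 and 249 at 48 h. In IR29 it went from 183, 171 and 162 to 327, 478 and 627 at 2 h, read 59.3, 323 and 125 at 48 h, and read 13.1, 14.0 and 14.1 after recovery. The 48 h arrays of IR29 lay on both sides of the control, and the recovery arrays were the lowest of the gene. The rise at 2 h was 1.94 (SE 0.40, adjusted p = 0.00056) in LTH and 1.43 (SE 0.40, adjusted p = 0.0078) in IR29. The genotype difference at 48 h was 1.80 (SE 0.56, adjusted p = 0.037). It did not pass the test in 10 of the 12 fits that left out 1 array, and was 1.21 (adjusted p = 0.16) without IR29 48 h replicate 1.

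GRXC10 had its largest rise in IR29, from 65.5, 55.9 and 50.1 in the control to 736, 450.2 and 649 at 8 h. LTH started higher, at 210.4, 117 and 159, read 519.9, 370.2 and 525 at 2 h and was down to 34.4, 57.6 and 128 at 48 h. At 2 h the LTH arrays did not overlap their controls, yet the difference of 1.56 (SE 0.59, adjusted p = 0.062) missed the threshold. On the IR29 arrays at 8 h the 4 measured shoot meristem markers summed to 274.1 to 289.7, against 26.6 to 48.7 in the IR29 control, and the dividing-cell markers to 649.8 to 1294.4, against 220.4 to 744.6. The part of these cells in the 8 h values was not tested. In IR29 the log2 difference was 3.40 (SE 0.59, adjusted p = 6.7e-05) at 8 h and 1.73 (SE 0.59, adjusted p = 0.025) at 48 h. The genotype difference was -2.81 (SE 0.84, adjusted p = 0.037) at 24 h and -3.04 (SE 0.84, adjusted p = 0.017) at 48 h. The call at 24 h was lost in 10 of 12 fits that left out 1 array (largest adjusted p = 0.10), and that at 48 h without LTH 48 h replicate 1 (adjusted p = 0.065) or IR29 48 h replicate 3 (adjusted p = 0.060). Without the 3 arrays that stand apart, the LTH rise at 2 h passed with 1.56 (adjusted p = 0.035), and so did the genotype difference at 8 h, with -2.59 (adjusted p = 0.049) instead of -2.39 (adjusted p = 0.13).

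For GRXS11 the direction depended on the probe set. The brighter one rose in LTH from 810.3 ± 73.0 (SD) in the control to 2179 ± 144 at 48 h, a log2 difference of 1.43 (SE 0.16, adjusted p = 3.3e-08). The other probe set, nearly as bright in the LTH control at 777 ± 8.2, read 496 ± 49.8 at 48 h, a log2 difference of -0.65 (adjusted p = 0.00029) and below the 2-fold minimum. From 48 h to recovery the first fell and the second rose in both genotypes, with log2 differences of -1.48 and 1.01 in LTH and of -1.21 and 1.38 in IR29. Which of the probe sets follows the GRXS11 transcript was not tested, so its rise holds for 1 of its probe sets.

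**Figure D2:**
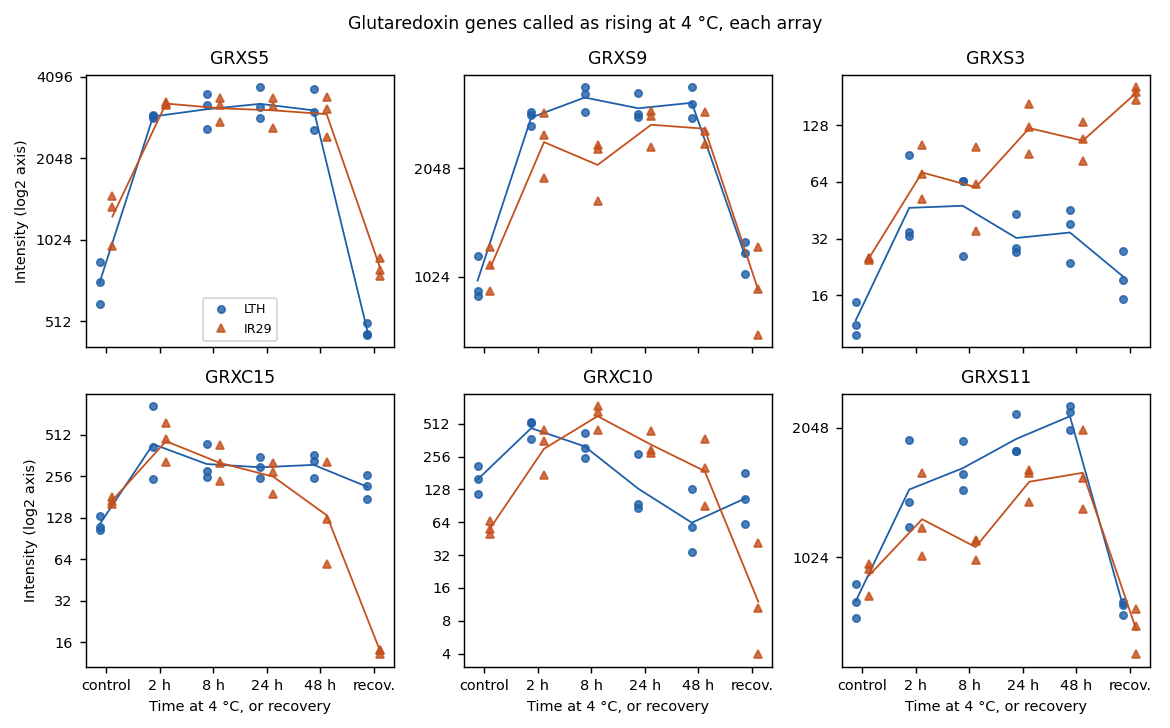
Intensity on a log2 axis for the 6 glutaredoxin genes that rose at 4 °C, in the control, at each time at 4 °C and after recovery; circles are LTH arrays, triangles IR29 arrays, and lines join the means of log2 values. GRXS5 and GRXS9 jump by 2 h. After recovery GRXS9 overlaps its controls and GRXS5 lies below them in both genotypes. GRXS3 in IR29 ends at its highest level and GRXC15 and GRXC10 in IR29 end at their lowest. GRXS11 is shown by its brighter probe set.

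The thioredoxins of types known from chloroplasts differed among themselves. Trx25 (thioredoxin z) and the m types Trx08, Trx14 and Trxm5 each fell at 48 h in both genotypes. Trx03 (thioredoxin f) fell in IR29 at 2, 8 and 24 h, and Trxy stayed within the 2-fold minimum at every chilling time. The leaf marker sum was also lower at 48 h, at 8393 to 9091 in LTH against 14215 to 14661 in the control, and at 7134 to 11718 in IR29 against 14178 to 15918, and its part in these falls was not tested. In leaf samples, fewer cells of a type and less RNA per cell cannot be told apart.

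Trx25, also named CiTrx, fell at every time in both genotypes. Its LTH controls read 762, 510.1 and 611, and its LTH arrays read 163, 113 and 162 at 2 h, 50.3, 107 and 49.3 at 24 h and 39.2, 55.9 and 51.0 at 48 h. Its IR29 controls read 277, 251 and 203, followed by 102, 65.8 and 66.3 at 2 h and 32.01, 31.1 and 47.2 at 48 h. No chilled array overlapped the controls of its genotype, and at 48 h the arrays of the genotypes overlapped while the controls did not. The log2 difference deepened in LTH from -2.11 (SE 0.28, adjusted p = 1.7e-06) at 2 h to -3.68 (SE 0.28, adjusted p = 1.4e-11) at 48 h. In IR29 it was -1.67 (SE 0.28, adjusted p = 4e-05) at 2 h and -2.74 (SE 0.28, adjusted p = 5.8e-09) at 48 h. The difference between the genotypes in this fall was -0.94 at 48 h (95% interval -1.76 to -0.12, adjusted p = 0.15). Without the 3 arrays that stand apart it was -1.05 at 48 h (adjusted p = 0.037) and passed at 8 and 24 h too, with -1.16 and -1.43.

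Trx08, also named Trxm1, fell late and further in LTH. LTH read 702, 503 and 583 in the control, 355, 355 and 443 at 8 h and 64.3, 54.9 and 93.6 at 48 h. IR29 read 571, 465 and 376 in the control, 420.3, 430.2 and 429.8 at 8 h and 192, 187 and 195 at 48 h. At 48 h the arrays of the genotypes did not overlap, with LTH the lower. The log2 difference at 48 h was -3.09 (SE 0.18, adjusted p = 5e-14) in LTH and -1.28 (SE 0.18, adjusted p = 1e-06) in IR29. The fall was larger in LTH, with a genotype difference of -1.13 (SE 0.25, adjusted p = 0.0046) at 24 h and -1.81 (SE 0.25, adjusted p = 1.5e-05) at 48 h. The call at 24 h slipped under the 2-fold minimum, at -0.97, without LTH 24 h replicate 3 or IR29 control replicate 3.

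Trxm5, the m type known in rice to be needed for chloroplast development, was a bright gene. Its LTH mean went from 2893 ± 190.4 to 1028 ± 54.3 at 48 h, and its IR29 mean from 2805 ± 395 to 1244 ± 334. The falls at 48 h were -1.49 (SE 0.18, adjusted p = 6.5e-08) and -1.20 (SE 0.18, adjusted p = 2.9e-06), and the second probe set gave -1.24 and -1.02. Trx14, also named Trxm2, scattered widely between replicates. Its LTH arrays read 170.0, 193 and 511 at 8 h and 91.8, 327 and 121 at 24 h, with the highest value each time on the array that stands apart. Its falls at 48 h were -1.66 (SE 0.47, adjusted p = 0.0061) in LTH and -1.35 (SE 0.47, adjusted p = 0.026) in IR29. Without the 3 arrays that stand apart the IR29 fall at 48 h was -0.66 (adjusted p = 0.13), and the LTH value at 8 h passed with -1.22 (adjusted p = 0.0068).

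Trx03, the single gene named as thioredoxin f, separated the genotypes from the first hours. Its LTH arrays read 2411, 3152 and 2859.8 in the control, 2029, 2547 and 2252 at 2 h and 2763, 2232 and 2836 at 24 h. Its IR29 arrays read 3032, 2808 and 3302 in the control, 1112, 1249 and 1263 at 2 h, 727, 996 and 837 at 8 h and 1589, 2310.0 and 1057 at 48 h. The controls of the genotypes overlapped, and at 2, 8, 24 and 48 h every IR29 array lay below every LTH array. In IR29 the log2 difference was -1.33 (SE 0.19, adjusted p = 2.5e-06) at 2 h and -1.84 (SE 0.19, adjusted p = 1.3e-08) at 8 h. In LTH none of the 5 comparisons with the control passed, and the values lay between -0.37 and -0.05. The genotype difference was 1.48 (SE 0.26, adjusted p = 0.0011) at 8 h and 1.18 (SE 0.26, adjusted p = 0.0045) at 24 h. At 2 h it was 1.03 (SE 0.26, adjusted p = 0.036), and that call was lost in 8 of 12 fits that left out 1 array. The 48 h value in IR29, -0.95 (SE 0.19, adjusted p = 0.00015), was just under the 2-fold minimum and became -1.23 without the 3 arrays that stand apart. The genotype difference at 48 h, 0.90 (SE 0.26, adjusted p = 0.025), was also under the minimum and passed without them, with 1.18 (adjusted p = 0.00036). Trxy, in contrast, was at 744 ± 12.6 in the LTH control and 414 ± 36 at 48 h, with log2 differences between -0.85 and -0.58 in LTH (adjusted p at most 0.015) and between -0.72 and -0.25 in IR29 under chilling, all below the 2-fold minimum.

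**Figure D3:**
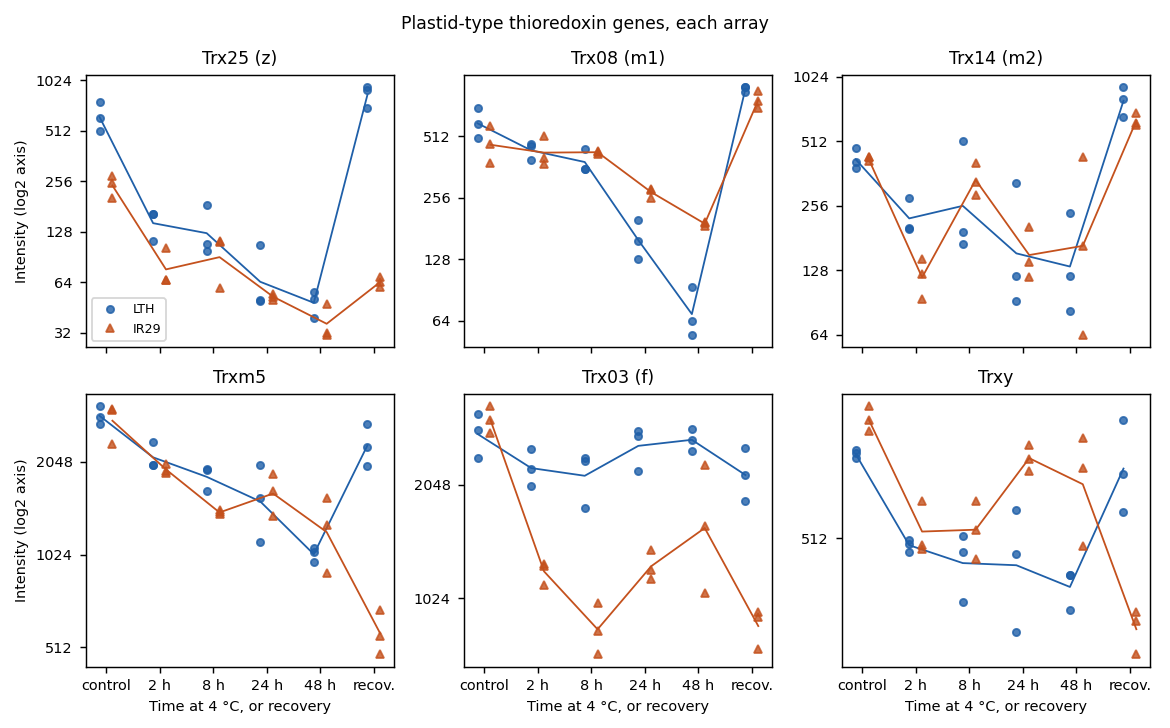
Intensity on a log2 axis for 6 thioredoxin genes of types known from chloroplasts, by time at 4 °C and after recovery; circles are LTH arrays, triangles IR29 arrays, and lines join the means of log2 values. Trx25 and Trx08 fall and return in LTH, Trx03 drops in IR29 at 4 °C while its controls overlap those of LTH, and Trx25, Trxm5, Trx03 and Trxy in IR29 stay below the control after recovery.

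Of the h-type thioredoxins, Trx01 fell in both genotypes, Trx10 fell in IR29 but did not pass in LTH, and Trxh1 and Trx18 did not pass in any comparison with a control. Trx01, also named Trxh4-1, went from a mean of 287 ± 35.7 in the LTH control to 96.6 ± 29.6 at 48 h, and from 467 ± 36.9 to 90.4 ± 32.5 in IR29. Its log2 difference at 48 h was -1.62 (SE 0.27, adjusted p = 1.4e-05) in LTH and -2.43 (SE 0.27, adjusted p = 1.9e-08) in IR29.

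Trx10, also named Trxh2-2, fell at all 4 times in IR29 and at none in LTH. Its LTH arrays read 586, 711 and 587 in the control and 973, 893 and 616 at 48 h. Its IR29 arrays read 839, 859 and 1034 in the control, 232, 277 and 393 at 2 h, 193, 277 and 252 at 24 h and 234, 517 and 176 at 48 h. Every chilled IR29 array was below every IR29 control, and at 48 h LTH lay above IR29 without overlap. The log2 difference in IR29 was between -1.93 and -1.63 at the 4 times (SE 0.25). In LTH it lay between -0.49 and 0.38, with no adjusted p under 0.18. The genotype difference was 1.90 (SE 0.36, adjusted p = 0.00091) at 24 h and 2.08 (SE 0.36, adjusted p = 0.00019) at 48 h. The values of 1.13 at 2 h and 1.18 at 8 h did not pass (adjusted p = 0.10 and 0.065), and without the 3 arrays that stand apart they did, with 1.13 and 1.12.

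Trxh1, the phloem sap thioredoxin of rice, was at 2435 ± 76.4 in the LTH control and 1289 ± 159 at 48 h, a log2 difference of -0.92 (SE 0.19, adjusted p = 0.00018). Trx18 was higher on every 2 h array than on every control array of its genotype. Its log2 differences at 2 h, 0.68 in LTH and 0.63 in IR29, were below the 2-fold minimum. The second probe set of Trx18 gave 0.73 (adjusted p = 0.086) and 0.98 (adjusted p = 0.016). Trx20, also named Trxh5, was dim, and fell at 48 h in LTH and at 8 h in IR29, with -1.08 in both (SE 0.34, adjusted p = 0.014 and 0.021). Among the thioredoxins of other kinds, Trx26 (TDX, which in Arabidopsis carries TPR repeats) fell in LTH at 48 h, with a log2 difference of -1.12 (SE 0.12, adjusted p = 4.1e-09). Trx15 (CXXS1) had log2 differences between -0.33 and 0.15 over both genotypes and all chilling times, with no adjusted p under 0.23. Trx19 lay between -0.49 and -0.24 in LTH and between -0.81 and -0.56 in IR29, where the adjusted p was at most 0.016 and the size was below the 2-fold minimum.

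Glutaredoxins that fell included GRXC1, GRXS7, GRXS12 and GRXS10 in both genotypes. GRXC1 had the largest fall of all 32 genes at 48 h. Its LTH arrays read 663, 591 and 896 in the control, 826, 910.2 and 969 at 2 h, 161, 64.4 and 186 at 24 h and 42.8, 56.7 and 48.3 at 48 h. Its IR29 arrays read 859, 679.8 and 853 in the control, 217, 267 and 294 at 8 h and 61.3, 119 and 42.0 at 48 h. In both genotypes the 48 h arrays lay far below the controls without overlap. The log2 difference at 48 h was -3.85 (SE 0.39, adjusted p = 2.5e-09) in LTH and -3.56 (SE 0.39, adjusted p = 1.5e-08) in IR29. The LTH value at 8 h, -1.07 (SE 0.39, adjusted p = 0.048), did not pass without the 3 arrays that stand apart (-0.78, adjusted p = 0.099).

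GRXS12 fell at all 4 times in both genotypes. Its LTH mean went from 1028 ± 153 to 486 ± 32.1 at 2 h and 364 ± 106 at 48 h, and its log2 differences lay between -1.77 and -1.07 in LTH and between -1.83 and -1.06 in IR29. GRXS7 fell from 24 h in LTH and from 2 h in IR29. Its means at 48 h were 231 ± 22.9 in LTH and 201 ± 58.2 in IR29, against 914 ± 88.8 and 924 ± 78.6 in the controls, and the log2 differences were -1.98 (SE 0.21, adjusted p = 4.9e-09) and -2.24 (SE 0.21, adjusted p = 6.8e-10). Without the 3 arrays that stand apart the LTH value at 24 h, -1.18, was -0.86 and below the 2-fold minimum. The earlier start in IR29 was not a difference between the genotypes that passed the test, at 0.67 (SE 0.29, adjusted p = 0.3) at 2 h. GRXS10 fell at 48 h, with -1.44 (SE 0.14, adjusted p = 1.8e-09) in LTH and -1.25 (SE 0.14, adjusted p = 3.7e-08) in IR29. Its second probe set gave -1.14 in LTH and -0.94 in IR29, the latter below the 2-fold minimum.

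GRXC7 and GRXC8 fell in IR29 and did not pass in LTH. GRXC7 read 159.8, 167 and 212 in the IR29 control and 48.2, 66.3 and 78.2 at 24 h, against 147, 123 and 86.2 and 127, 146 and 149.9 in LTH. The IR29 arrays at 24 h lay below their controls and the LTH arrays overlapped theirs. The genotype difference for GRXC7 was 1.78 (SE 0.39, adjusted p = 0.0041) at 24 h and 1.67 (SE 0.39, adjusted p = 0.0047) at 48 h. GRXC8 fell by 1.23 at 2 h and by 1.16 at 48 h on the log2 scale in IR29, and none of its genotype differences passed the test. In LTH its log2 differences under chilling lay between -0.89 and -0.38, with a smallest adjusted p of 0.00075. These are below the 2-fold minimum, although every LTH array at 48 h was below every LTH control. The remaining glutaredoxins, GRXS1, GRXS4, GRXS6, GRXC3 and GRXC6, passed in no comparison with a control, and GRXC3 (ROXY2, known from anther development) was near the floor with group means of 7.2 to 19.6. A second probe set of GRXS4, of similar brightness to the first, fell at 48 h, with -1.34 in LTH and -1.37 in IR29, where the first gave -0.97 and -0.50.

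Counted over the genotypes, 9 genes fell in both at 48 h (Trx01, Trx08, Trx14, Trx25, Trxm5, GRXC1, GRXS7, GRXS10 and GRXS12), which is 9 of the 11 in LTH and 9 of the 12 in IR29 (81.8% and 75%, beside 63.6% and 62.7% of named genes). GRXS3, GRXS5 and GRXS9 rose in both, 3 of the 5 in LTH and 3 of the 4 in IR29 (60% and 75%, beside 50.9% and 66.1% of named genes). At none of the 4 times was a gene called up in 1 genotype and down in the other. The number of genes whose response differed between the genotypes by the test was counted at each chilling time. At 2 h it was 1 higher in LTH and 0 lower, beside 1.19% and 0.402% of all probe sets (1.9% and 0.436% of named genes). At 8 h it was 1 and 0, beside 2.26% and 0.589% (3.71% and 0.737% of named genes). At 24 h it was 3 and 2, beside 4.02% and 2.09% (6.42% and 2.68% of named genes). At 48 h it was again 3 and 2, beside 5.89% and 2.82% (9.09% and 3.79% of named genes). As shares of the 32 genes, these 3 and 2 are 9.38% and 6.25%.

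**Figure D4:**
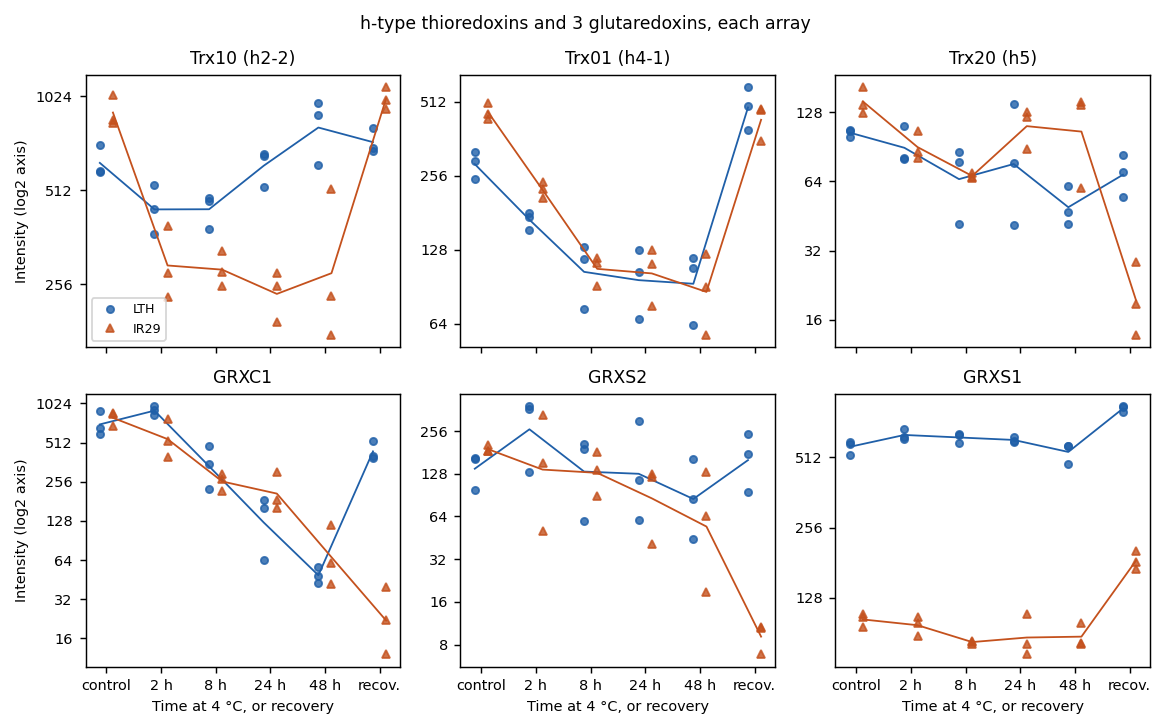
Intensity on a log2 axis for 3 h-type thioredoxins and 3 glutaredoxins, by time at 4 °C and after recovery; circles are LTH arrays, triangles IR29 arrays, and lines join the means of log2 values. Trx10 drops in IR29 under chilling and is back at the control after recovery, Trx20, GRXC1 and GRXS2 in IR29 are lowest after recovery, and GRXS1 is higher in LTH in every group.

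Recovery set the genotypes apart more than chilling did in number of calls. In LTH, 0 of the 32 genes differed from the control after 24 h at 29 °C, where 1.35% of all probe sets were higher and 1.22% lower (2.32% and 2.26% of named genes). With no minimum on the size, 5 LTH genes passed the adjusted p, and 12 passed an unadjusted p below 0.05. In IR29, 2 genes were higher (GRXC8 and GRXS3) and 10 were lower, where 8.94% of all probe sets were higher and 11.7% lower. Over 1 probe set per named gene the IR29 background was 11.7% and 18.7%, against 31.2% of the 32 genes that were lower. The lower genes were Trx03, Trx19, Trx20, Trx25, Trxm5, Trxy, GRXC1, GRXC10, GRXC15 and GRXS2. In the difference between the genotypes, 9 genes were higher in LTH and 1 was lower, beside 6.0% and 3.02% of all probe sets, and beside 10.5% and 4.7% of named genes. The leaf marker sum was also lower in these IR29 recovery arrays, as given above, as were root markers (56.2 to 115.9, against at least 160.6 on every other array). Dividing-cell markers summed to 122.4 to 159.9 there, against 220.4 to 744.6 in the IR29 control. Shoot meristem markers summed to 14.1 to 19, against 26.6 to 48.7. In LTH the dividing-cell sum was lower in recovery too, at 262 to 510.6 against 1059.2 to 1270.4 in the control. The part of these tissues in these results was not tested.

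The change from 48 h to recovery was tested for all 32 genes. In LTH, 13 genes rose and 3 fell (GRXS5, GRXS9 and GRXS11), beside 13.8% and 12.3% of all probe sets and 23.5% and 15.8% of named genes. In IR29, 10 genes rose and 9 fell, beside 14.8% and 14.5% of all probe sets and 24.5% and 20.3% of named genes. These comparisons share the 48 h arrays with those of 48 h against the control, so a gene that is low there is low in both. Trx25, Trxm5, GRXC1 and GRXS2 were lower than the same controls at both 48 h and recovery in IR29.

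Trx25 was back at the control level in LTH and not in IR29. In LTH it went from the 48 h values given above to 936, 700.4 and 895 after recovery, a log2 difference of 4.12 (SE 0.28, adjusted p = 1.2e-12). In IR29 it read 64.1, 68.9 and 59.5, a log2 difference of 0.83 (SE 0.28, adjusted p = 0.021) from 48 h and -1.92 (SE 0.28, adjusted p = 3.3e-06) from the control. The LTH arrays overlapped their controls and the IR29 arrays were all below theirs. The genotype difference in the recovery response was 2.35 (SE 0.40, adjusted p = 0.00011).

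Trx08 returned in both. It read 887, 837 and 889 in LTH and 698, 851 and 759 in IR29, above every control array of the genotype. The step from 48 h was 3.66 (SE 0.18, adjusted p = 2.1e-15) in LTH and 2.00 (SE 0.18, adjusted p = 1.7e-10) in IR29. The difference from the control, 0.56 and 0.72, was below the 2-fold minimum. Trx10 also came back in IR29, to 996, 1095 and 931, a step of 1.86 (SE 0.25, adjusted p = 4.8e-07).

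GRXC1 had the largest difference between genotypes among those that had fallen in both. It read 529.9, 392 and 404 in LTH and 39.8, 12.1 and 22.0 in IR29. The step from 48 h was 3.16 (SE 0.39, adjusted p = 8.4e-08) in LTH, while the same step in IR29 was -1.62 (SE 0.39, adjusted p = 0.0011). Against the control the IR29 difference was -5.17 (SE 0.39, adjusted p = 1.1e-11), and the genotype difference was 4.48 (SE 0.55, adjusted p = 8e-07).

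GRXS2 varied widely between replicates under chilling and then dropped in IR29. Its control arrays read 164, 166 and 98.6 in LTH and 186, 184 and 204 in IR29. At 48 h they read 44.2, 85.0 and 163 in LTH and 18.9, 131 and 64.6 in IR29. After recovery they read 175, 243 and 95.5 in LTH, while those of IR29 read 10.4, 6.84 and 10.6. The recovery arrays of IR29 were the lowest of the gene and did not overlap any other group. They lie at or below about the median intensity of all values on the arrays (10.5), and the file holds no detection calls, so the size of the fall is a bound. With values below that median set to it, the log2 difference from the control was -4.18 or lower (adjusted p = 5.3e-05) and the genotype difference at least 4.38 (adjusted p = 0.0037). As measured, the log2 difference there was -4.39 (SE 0.68, adjusted p = 7.2e-06) from the control and -2.58 (SE 0.68, adjusted p = 0.0029) from 48 h. In LTH it was 0.20 (SE 0.68, adjusted p = 0.96), and the genotype difference was 4.59 (SE 0.96, adjusted p = 0.0013).

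GRXC15 and GRXC10 had risen in IR29 at 2 h and ended below the control. GRXC15 after recovery read 175, 217 and 260.5 in LTH, and its IR29 values are given above. The IR29 difference from the control was -3.64 (SE 0.40, adjusted p = 1.9e-08) and the genotype difference 4.55 (SE 0.56, adjusted p = 1.1e-06). GRXC10 read 41.1, 3.95 and 10.5 in IR29 after recovery, a difference of -2.25 (SE 0.59, adjusted p = 0.0042) from the control and of -3.98 (SE 0.59, adjusted p = 2.4e-06) from 48 h. With values below the median of all values set to it, these were -1.78 (adjusted p = 0.019) and -3.51 (adjusted p = 1.3e-05), as bounds. In LTH it read 61.9, 183 and 105, and the genotype difference of 1.68 (SE 0.84, adjusted p = 0.25) did not pass.

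Trx20 read 83.5, 54.7 and 70.3 in LTH and 18.6, 28.5 and 13.8 in IR29 after recovery, against 108, 106 and 100.05 and 165, 128 and 138 in the controls. The IR29 difference from the control was -2.88 (SE 0.34, adjusted p = 8.2e-08) and the genotype difference 2.27 (SE 0.48, adjusted p = 0.0015). Its second probe set, dim at 2.8 to 17.2 in group means, gave -0.05 (adjusted p = 0.96) for that IR29 difference and 1.41 (adjusted p = 0.032) from 48 h to recovery, where the first gave -2.44 (SE 0.34, adjusted p = 7.7e-07). The low level in IR29 therefore rests on 1 of its probe sets.

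Trxm5, Trx03, Trxy and Trx15 differed between the genotypes after recovery as well. Trxm5 read 2718, 1989 and 2294 in LTH and 487, 675 and 558 in IR29, with a difference of -2.29 (SE 0.18, adjusted p = 2.4e-11) from the IR29 control and of 1.97 (SE 0.25, adjusted p = 1.7e-06) between the genotypes (1.65 with its second probe set). Trx03 read 2559, 1848 and 2168 in LTH and 750.2, 911 and 943 in IR29, with -1.82 (SE 0.19, adjusted p = 6.1e-09) from the IR29 control and 1.45 (SE 0.26, adjusted p = 0.00026) between the genotypes. Trxy read 866, 575 and 681 in LTH and 306, 354 and 369 in IR29, with -1.34 (SE 0.17, adjusted p = 4.1e-07) and 1.25 (SE 0.25, adjusted p = 0.00068). In these cases the IR29 recovery arrays lay below every LTH recovery array. Trx15 had 1514 ± 77.4 in LTH and 839 ± 126 in IR29, and a genotype difference of 1.11 (SE 0.28, adjusted p = 0.0073), although neither genotype alone passed against its control. GRXC8, in the other direction, was at 929.9 ± 40.3 in IR29 against 426 ± 22.5 in the control, a difference of 1.13 (SE 0.20, adjusted p = 5.9e-05).

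**Figure D5:**
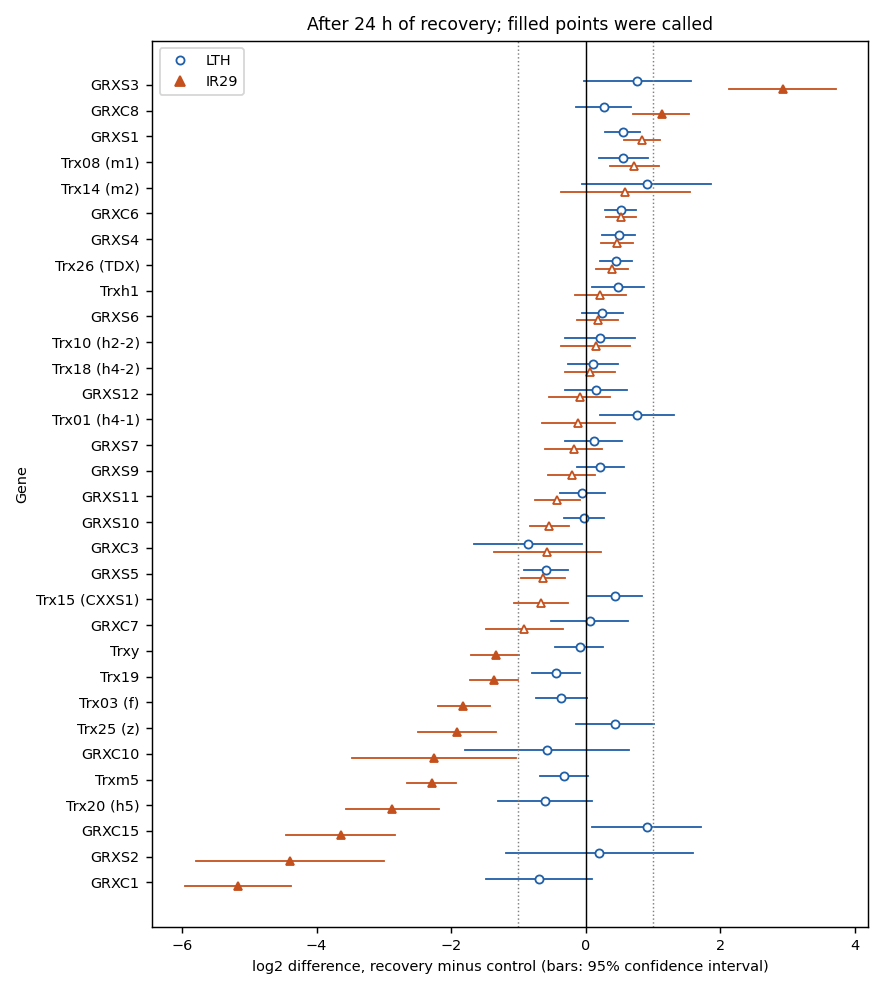
Log2 difference between recovery and control for each of the 32 genes, sorted by the IR29 value; circles are LTH, triangles IR29, bars are 95% confidence intervals, filled points passed the test and dotted lines mark a 2-fold change. All LTH points lie between -0.86 and 0.91 and none is filled, while 12 IR29 points are filled, down to -5.17 for GRXC1.

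Before any chilling the genotypes differed in 2 of the 32 genes, both higher in LTH, beside 4.07% of all probe sets higher and 3.44% lower (4.62% and 3.67% of named genes). GRXS1 read 597, 522 and 586 in the LTH controls and 109, 96.1 and 106 in the IR29 controls. At 48 h it read 573, 479.5 and 572 and 100.3, 81.2 and 81.9, and after recovery 845, 803 and 837 and 171, 183 and 202. LTH lay above IR29 without overlap in every group, and the difference in the controls was 2.45 (SE 0.13, adjusted p = 8.2e-15). GRXS1 rose from 48 h to recovery in IR29, by 1.08 (SE 0.13, adjusted p = 5.2e-08). Trx25 was the other gene, with a control difference of 1.36 (SE 0.28, adjusted p = 0.001). At 48 h its LTH and IR29 arrays overlapped, as given above. On this array a genotype difference in transcript level and one in how the probes hybridize cannot be told apart.

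A further set of redox genes, called partner genes, was counted from symbols or synonyms. It took reductases, peroxiredoxins, glutathione synthesis, disulfide isomerases, methionine sulfoxide reductases and APR-like genes, named after adenylylsulfate reductase. Whether these work with the thioredoxins and glutaredoxins described above was not tested. Of 32 such genes with a probe set, 3 rose and 7 fell in LTH at 48 h, and 2 rose and 12 fell in IR29. These are 9.38% and 21.9% in LTH, beside 14.9% and 22.6% of named genes, and 6.25% and 37.5% in IR29, beside 11.4% and 22.9%. After recovery, 0 differed from the control in LTH, where 2.32% of named genes were higher and 2.26% lower. In IR29, 5 were higher and 5 lower (15.6% each, beside 11.7% and 18.7% of named genes). The strongest fall was that of PRXIIE-2, a peroxiredoxin gene, in IR29 after recovery, at -4.94 (SE 0.50, adjusted p = 4.5e-09), and its recovery response differed between the genotypes by 4.07 (SE 0.71, adjusted p = 0.00015). PRXIIE-1, of the same class, fell at 48 h, with -2.88 (SE 0.27, adjusted p = 9e-10) in LTH and -2.22 (SE 0.27, adjusted p = 1.4e-07) in IR29, and was higher than the control in IR29 after recovery, at 1.45 (SE 0.27, adjusted p = 0.00011).

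PDIL2-3, a disulfide isomerase gene, fell at 48 h, with -4.40 (SE 0.34, adjusted p = 1.4e-11) in LTH and -3.55 (SE 0.34, adjusted p = 1.3e-09) in IR29, and rose by 4.91 and 5.00 from there to recovery. PDIL1-3 went the other way in IR29, where the controls read 2.31 to 2.97, below the median intensity of all values, and the 48 h arrays 32.2 to 39.9. Its rise is therefore a bound, at least 1.8 on the log2 scale (adjusted p = 2.2e-08) with values below that median set to it. In LTH it read 4.6 to 8.43 in the control and 9.42 to 19.2 at 48 h, too dim for a fold change, and 0.42 (adjusted p = 0.098) on the same floor. Of the 4 measured reductase genes, 0 passed in LTH at 48 h or after recovery, and 1 fell in IR29 at each. At 48 h that was FTR-B, a subunit gene of ferredoxin-thioredoxin reductase, with -1.08 (SE 0.19, adjusted p = 5.3e-05). After recovery it was NtrC, the chloroplast NADPH-dependent thioredoxin reductase, with -1.77 (SE 0.23, adjusted p = 3.1e-07) and a genotype difference of 1.46 (SE 0.32, adjusted p = 0.002). Earlier in IR29, 1 of the 4 fell at 2 h and 2 fell at 8 h. The NtrC mean was 520 in the IR29 control and 182 at both of these times. FTR-B and NtrC were named after their values were seen.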

How the data were processed

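Leaf RNA of 36 samples was hybridized to the Affymetrix rice array. The authors extracted intensity values with GCOS and normalized them with dChip, and the deposited table holds the linear intensity of 57258 probe sets on each array. The genome build of the annotation is not given in the sources used here, so no coordinates or sequences are shown. Genes were named from the platform annotation: 22436 probe sets have 1 gene, 95 several and 34727 none, and the last are unnamed here, not without a gene. All columns belong to samples of the series.

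Intensities were floored at 1 and log2-transformed. A linear model of the 12 group means was fitted over all arrays and probe sets with limma 3.58.1 in R 4.3.3 (eBayes with an intensity trend), and p-values were adjusted by Benjamini-Hochberg within each of 18 comparisons: each treated group against the control of its genotype, recovery against 48 h, the controls of LTH against those of IR29, and the genotype difference in each response (LTH minus IR29). The study called genes at a 2-fold change with dChip's lower bound and with a t-test. Here limma with the same 2-fold minimum was the main test, and the methods' t-test was an alternative. The fitting code was tested on simulated data. Precision is limited by 3 arrays per group.

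Values on every array are given for the genes with the largest changes against a control (up to 8), between the controls, between genotype responses (up to 8) and from 48 h to recovery (up to 4 per genotype), and for some others chosen after their values were seen. The planned choice by active-site class could not be made without protein sequences. The genes, lists and rules were chosen with earlier results of these data known. Partner genes were found by symbol or synonym, 32 with a probe set and 3 without. Marker genes were matched the same way.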

Additional observations from a re-analysis of the deposited data

Results flagged for a closer look

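In 14 of the 32 genes (43.8%, beside 27.1% of named genes) the response differed between the genotypes at 1 or more of the 5 times by the test of the difference itself, given here as the log2 response of LTH minus that of IR29. During chilling, the Trx03 difference was 1.03 at 2 h, then 1.48 (8 h) and 1.18 (24 h). Trx10 differed by 1.90 at 24 h and 2.08 at 48 h, and both responses were lower in IR29. GRXC7 differed by 1.78 at 24 h and 1.67 at 48 h and GRXC15 by 1.80 at 48 h. The difference went the other way for Trx08, with -1.13 at 24 h and -1.81 at 48 h, and for GRXC10, with -2.81 at 24 h and -3.04 at 48 h.

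After recovery, GRXS2 differed by 4.59 (at least 4.38 with values below the median intensity of 10.5 set to it), GRXC15 by 4.55, GRXC1 by 4.48, Trx25 by 2.35, Trx20 by 2.27, Trxm5 by 1.97, Trx03 by 1.45, Trxy by 1.25 and Trx15 by 1.11. GRXS3 differed by -2.16. The IR29 recovery arrays also had the lowest root marker sums of all arrays. Their leaf, dividing-cell and shoot meristem marker sums were below those of every IR29 control array. The part of tissue makeup in these differences was not tested.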

How the results depend on the processing

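Leaving out the fold minimum raised the number of the 32 genes called, to 14 in LTH at 2 h, 18 at 8 h and 5 in recovery, to 22, 20, 23 and 21 in IR29 at 2, 8 and 24 h and in recovery, to 5 between the controls, and to 2 and 8 for the genotype difference at 8 and 48 h. Requiring the lower limit of a 90% interval to reach 2-fold lowered it, to 5 and 7 in LTH at 8 and 24 h, to 6, 6 and 8 in IR29 at 2, 8 and 48 h, to 1 between the controls, and to 0 and 3 for the genotype difference at 2 and 24 h. Fitting only the compared groups gave 4 between the controls and 3 for the genotype difference at 8 h. The genotype difference at 2 h, Trx03 alone, was lost (0 genes) with quantile normalization and without the intensity trend, and that at 8 h was 2 genes without the 40% dimmest probe sets.

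Leaving out together the 3 arrays that stand apart, a choice made after seeing the data, gave 2, 4 and 8 genes for the genotype difference at 2, 8 and 48 h. Of the results refitted, the 40 that the rule for named genes picked or that differed between the genotype responses kept their call. Calls that changed elsewhere and are not given in the report were GRXC3 in LTH at 2 h (-1.0, adjusted p = 0.027) and Trxh1 in IR29 at 48 h (-1.07, adjusted p = 1.3e-05), which passed, Trxm5 in IR29 from 48 h to recovery (-0.91), which did not, and the genotype difference of Trx01 at 48 h (1.07, adjusted p = 0.026), which passed.

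Without 1 array at a time, the genotype difference at 2 h ranged from 0 to 1 gene, being 0 in 8 of 12 fits. That at 24 h ranged from 3 to 6, with 3 without LTH 24 h replicate 3 or IR29 control replicate 3. That at 48 h also ranged from 3 to 6, with 3 without LTH 48 h replicate 1 or IR29 48 h replicate 3. The other 15 counts moved by at most 1.5 times. Among named results, the recovery difference of Trx15 was 0.98 without IR29 recovery replicate 3, below the 2-fold minimum. With the second probe set, the Trx20 change from 48 h to recovery in IR29 was 1.41 instead of -2.44. Over the 7 genes with more than 1 probe set, 22 comparisons were called with the brighter set, and the second gave a call of the same direction in 9 of these and of the reverse direction in 3. The labels do not say that a replicate number marks a shared plate. Deviations of same-numbered arrays had a median r = 0.002 over 198 pairs and 0.112 over the 84 pairs of chilled groups. In 6 of 28 pairs of chilled groups r was over 0.1 for every number. The main fit did not take the numbers as pairs. Single genes did follow the number. Trx18 increased from replicate 1 to 2 to 3 in every chilled group, and GRXS9 was lowest on replicate 1 in each. What the number stands for in the chilled groups was not tested. Of the 36 arrays, 17 were closest on average to their own among the 3 numbers. A fit with the replicate block gave 16 genes in LTH at 48 h, 16 in IR29 at 48 h and 12 in IR29 recovery, and moved no count by over 1.5 times. Median centring and a floor at the 20th percentile changed no count by over 1.5 times, nor did a floor at the median of all values, chosen after seeing the data, although it lost GRXC1 in LTH at 8 h and GRXS2 in IR29 at 48 h (adjusted p = 0.068 and 0.063). The methods' t-test at its unadjusted threshold, also added after seeing the data, called 4 genes between the controls in place of 2, and 0 to 16 against a control. After Benjamini-Hochberg adjustment it called 0 to 15 against a control, and lost GRXC10 and GRXS2 from 48 h to recovery in IR29 (adjusted p = 0.086 and 0.11). Dim genes such as GRXC3 and GRXS3 lie near the floor, where small differences cannot be read.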
